A study of Mus musculus with 121 samples.

Results

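Macrophages that settle in tumours carry a recognisable set of transcripts, and 10 of them are described here in transplanted mouse tumours after radiation: Mrc1, Msr1, Chil3, Ms4a7, Mpeg1, Lyz2, Apoe, Ly86, Fcer1g and Cd83. Each member was chosen by its symbol and read from the probe that the platform annotation assigns to its symbol. Every member had 1 probe, with values on at least 90% of the arrays, so the set holds 10 of the 12962 genes that were tested. All 10 passed the filter on dim probes, and none had a value at or below the floor of 0.1269 that was set under the intensities.

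The tumours grew in the hind leg of male C3H/HeMs mice and received a single local dose. The 6 tumours were a radiation-induced fibrosarcoma, a spontaneous fibrosarcoma (nfsa), a pair of spontaneous mammary carcinomas (mmca and mca4) and a pair of spontaneous squamous cell carcinomas, SCC in the labels (scc7 and nrs1). Gamma rays were given at 30, 50 or 70 Gy and tumours were taken on days 1 to 41 (81 arrays in 34 groups). Carbon ions were given at 30 Gy and tumours were taken from 6 hours to day 42 (40 arrays in 20 groups). Unirradiated tumours were labelled for the radiation-induced fibrosarcoma, mmca, nfsa and mca4 on the gamma side, with an added day 9 group for mmca, and for mmca and mca4 on the carbon side. A group held 2 arrays (41 groups) or 3 arrays (13 groups), and the labels do not say that arrays of a group are separate animals. The p-values therefore measure only the spread between these arrays, which may be technical. Each array measured a whole dissected tumour, so a lower value may mean fewer cells of a type or less RNA per cell, which cannot be told apart.

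Several facts about the whole series touch the results. The gamma arrays lacked a value for 9.99 to 18.6% of probes and had medians of 1.31 to 1.85, against 0.541 to 4.92% and 1.04 to 1.07 on the carbon arrays, so gamma and carbon levels are not compared. The median SD of the members within a group, on the log2 scale, was 0.0661 at gamma day 1, 0.0767 in the carbon groups and 0.304 in the later gamma groups. Epithelial markers (7 genes) averaged 2.91 to 5.72 on the log2 intensity scale in unirradiated mmca and mca4 and in nrs1, and -1.45 to -0.38 in unirradiated nfsa and radiation-induced fibrosarcoma. In scc7 the same list averaged -1.26 to -0.77, so the defining epithelial markers of a carcinoma were low there and it is called by its code below. Skeletal muscle markers (the tumours sat in the leg) ranged from -1.28 to 7.12 between arrays.

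Monocytes leave the blood, enter injured or growing tissue and mature there into macrophages, which engulf dying cells, digest them and hand the lipid on. Recently arrived and alternatively activated cells make secreted lectins such as Chil3, while mature tissue macrophages show scavenger receptors such as Mrc1 and Msr1 and, once they have taken up much lipid, make apolipoprotein E. Irradiated tumours are known to draw in such cells over days to weeks. Many of these genes carry binding sites for PU.1, the transcription factor of the myeloid lineage, close to their start sites.

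The upstream sequences of Chil3, which was highest early, and Mrc1, which was highest late in most courses, are shown. The pair was picked after the letters were seen, because 1 of them holds the letters named below and the other does not. Both run 5′ to 3′ on the gene's own strand, from 250 bases before to 50 bases after the start site, as given by RefSeq for GRCm38.p6. Capitals mark the letters GAGGAA, the core of the PU.1 site, found on either strand (on the opposite strand it reads TTCCTC).
Mrc1, chr2:14229164-14229463, plus strand: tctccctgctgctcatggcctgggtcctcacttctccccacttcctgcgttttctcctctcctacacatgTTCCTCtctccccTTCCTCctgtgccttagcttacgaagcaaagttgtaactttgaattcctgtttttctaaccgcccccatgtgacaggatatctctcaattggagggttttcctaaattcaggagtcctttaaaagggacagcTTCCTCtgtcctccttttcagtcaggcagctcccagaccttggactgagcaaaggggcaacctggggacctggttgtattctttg
Chil3, chr3:106167515-106167814, minus strand: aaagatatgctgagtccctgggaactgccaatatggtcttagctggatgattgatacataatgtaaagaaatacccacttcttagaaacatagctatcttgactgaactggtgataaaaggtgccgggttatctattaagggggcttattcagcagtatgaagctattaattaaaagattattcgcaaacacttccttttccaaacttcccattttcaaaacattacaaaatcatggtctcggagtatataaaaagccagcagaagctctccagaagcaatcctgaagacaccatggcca

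The Mrc1 window held 3 matches to GAGGAA, and the Chil3 window held none. Of the 8 members with a promoter in the table, 3 had a match in at least 1 of their 11 windows (Mrc1, Apoe and Ms4a7). Of all 32851 promoters of that length, 28.3% held at least 1 match and 0.685% held 3 or more. Both strands were searched, and a match is a description of the letters only. Promoters of Msr1 and Cd83 were not used here.

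Chil3 encodes a secreted chitinase-like lectin (Ym1) of myeloid cells and lies at chr3:106147554-106167564 in GRCm38.p6. It was higher 1 day after gamma irradiation in each of the 4 tumours that had unirradiated controls, and it was back at or below the unirradiated level by days 8 to 25. The unirradiated arrays of the radiation-induced fibrosarcoma read 1.86 and 2.3, and the day 1 arrays read 4.58 and 4.56 at 30 Gy, 3.47 and 3.98 at 50 Gy and 6.06 and 6.03 at 70 Gy. In nfsa the unirradiated arrays read 3.25 and 3, and the day 1 arrays read 5.16 and 6.04, then 13.7 and 15.3, then 4.39 and 4.42 in the same order of dose. In mca4 the values went from 0.698 and 0.553 without radiation to 1.71 and 1.7 at 30 Gy, 1.85 and 1.67 at 50 Gy and 1.95 and 2.05 at 70 Gy. In these 3 tumours every irradiated day 1 array lay above both unirradiated arrays.

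In mmca the pattern depended on the dose. Unirradiated arrays read 0.467 and 0.493, and arrays at 30 Gy read 0.426 and 0.514, so these groups overlapped. At 50 Gy both arrays read 3.72, and at 70 Gy they read 0.842 and 0.775. The log2 change of Chil3 in mmca was -0.04 (SE 0.389, limma adjusted p = 0.95) at 30 Gy, 2.95 (SE 0.389, limma adjusted p = 8.22e-09) at 50 Gy and 0.75 (SE 0.389, limma adjusted p = 0.148) at 70 Gy. The 50 Gy group of mmca stood apart in other genes too: the skeletal muscle markers averaged 2.77 to 2.83 there, 0.2 to 0.21 at 30 Gy and -1 to -0.9 without radiation, and the part of muscle tissue in these values was not tested.

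**Figure D1:**
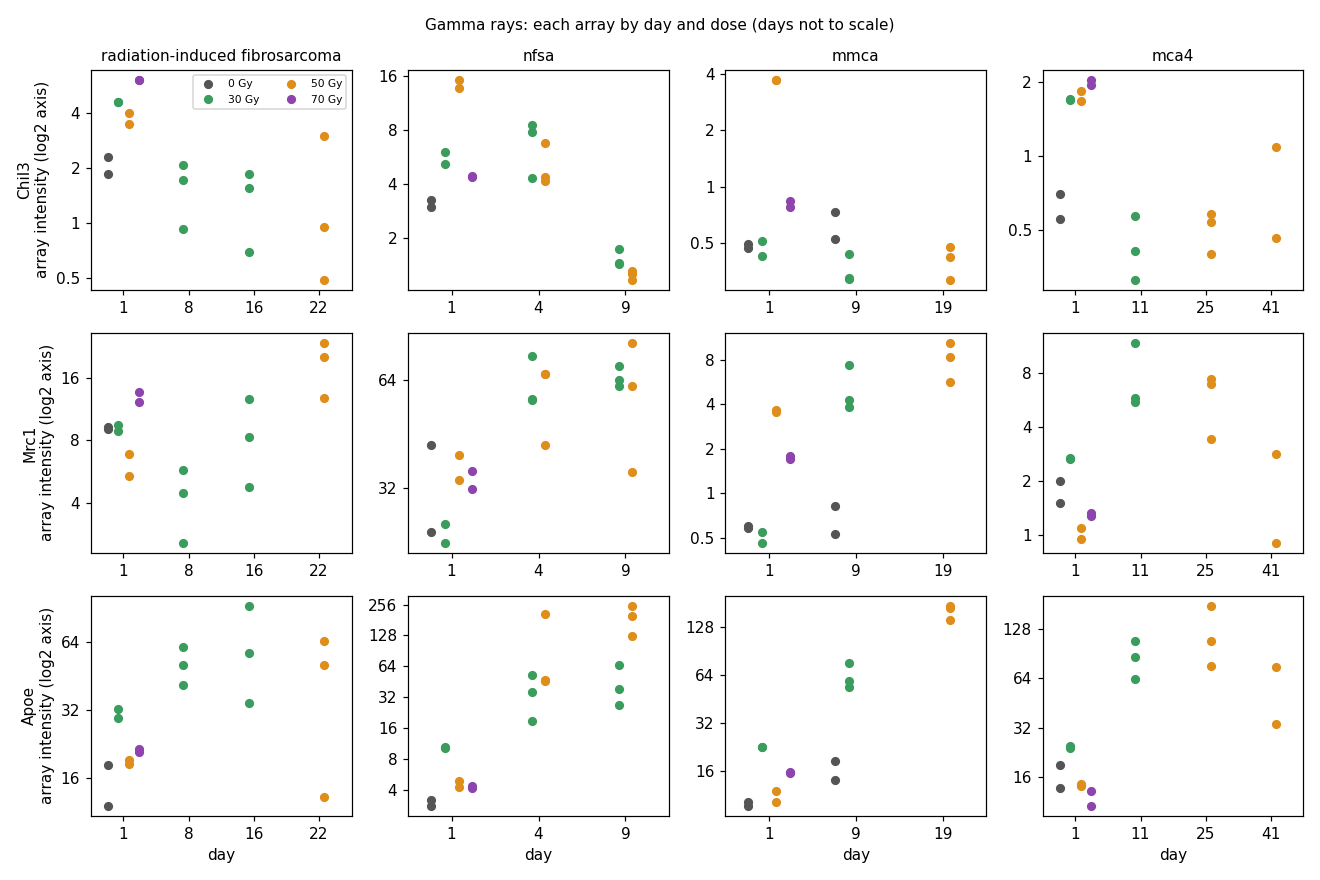
Intensity of Chil3, Mrc1 and Apoe (rows, log2 axis, arbitrary units) on every gamma array of the radiation-induced fibrosarcoma, mmca, nfsa and mca4 (columns) by day, with days evenly spaced rather than to scale. Each point is 1 array and its colour is the dose; Chil3 points are highest at day 1, as at 13.7 and 15.3 in nfsa after 50 Gy, while Apoe points are highest at the later days.

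Averaged with equal weight over the 4 tumours and over doses, Chil3 was 2.43-fold higher at gamma day 1 than without radiation (24 against 8 arrays, log2 change 1.28, SE 0.159, limma adjusted p = 1.37e-10). The change within single tumours was 1.18 in the radiation-induced fibrosarcoma, 1.22 in mmca, 1.18 in nfsa and 1.55 in mca4, all on the log2 scale, and each passed the test. In the same order of tumours 18.5%, 18.0%, 9.32% and 21.3% of all genes tested were higher. With the mmca 50 Gy group left out, a choice made after seeing the data, the average was 1.07 (limma adjusted p = 3.96e-08).

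The fall came later. On days 8 to 25 the arrays of the radiation-induced fibrosarcoma read from 0.487 to 2.97, those of mmca from 0.317 to 0.477, those of nfsa from 1.17 to 1.75 and those of mca4 from 0.312 to 0.578. In the radiation-induced fibrosarcoma, nfsa and mca4 all late arrays lay below all day 1 arrays, and in mmca they overlapped with the 30 Gy group of day 1. Against the unirradiated tumours the change of Chil3 was -0.76 (27 against 8 arrays, SE 0.157, limma adjusted p = 1.63e-05), and against day 1 at the same doses it was -2.03 (27 against 16 arrays, SE 0.123, limma adjusted p = 1.39e-24). Against unirradiated tumours the fall passed the test in the radiation-induced fibrosarcoma (-0.7) and nfsa (-1.17), and mmca (-0.71) and mca4 (-0.45) did not pass. The share of all genes lower then was 39.5% in the radiation-induced fibrosarcoma, 16.8% in mmca, 33.0% in nfsa and 35.1% in mca4.

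In nfsa, which was also sampled on day 4, Chil3 averaged over 30 and 50 Gy was lower on day 4 than on day 1 (log2 change -0.65, SE 0.251, limma adjusted p = 0.0225). That fall was in the 50 Gy arrays, which all lay below both day 1 arrays of their dose. At 30 Gy the day 4 values 7.79 and 8.57 lay above both day 1 arrays, and 4.35 lay below them. Chil3 read 7.79, 8.57 and 4.35 on day 4 after 30 Gy and 4.39, 6.78 and 4.15 after 50 Gy, all above the unirradiated pair. By day 9 it read 1.43, 1.45 and 1.75 after 30 Gy and 1.17, 1.26 and 1.31 after 50 Gy, all below that pair. The day 9 mean was 2.05 log2 units below the day 4 mean (SE 0.225, limma adjusted p = 4.81e-11).

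Carbon ions gave the early course at finer steps in mmca and mca4. In mca4 Chil3 read 0.364 and 0.362 without radiation, 0.502 and 0.432 at 6 hours, 1.86 and 1.74 on day 1, 2.02 and 2.18 on day 3, 1.23 and 1.14 on day 5 and 0.364 and 0.36 on day 20. The mmca arrays read 0.612 and 0.631 without radiation, 1.21 and 1.18 at 6 hours, 1.09 and 1.13 on day 1, 2.31 and 2.6 on day 3, 1.13 and 1.33 on day 5 and 0.55 and 0.577 on day 20. Both tumours were highest on day 3, and both ended at or just below the level they started from.

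Over the pair of tumours Chil3 was 4.78-fold higher on day 3 than without radiation (4 against 4 arrays, log2 change 2.26, SE 0.275, limma adjusted p = 2.85e-10). It fell by 0.91 from day 3 to day 5 (SE 0.275, limma adjusted p = 0.0152) and by 1.41 from day 5 to day 20 (SE 0.275, limma adjusted p = 4.7e-05). On day 20 it differed from the unirradiated level by -0.07 (SE 0.275, limma adjusted p = 0.821). Skeletal muscle markers in mca4 averaged 1.88 to 2.14 without radiation, 4.02 to 4.16 on day 1 and 0.71 to 0.74 on day 3. The part of muscle tissue in the Chil3 values was not tested.

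**Figure D2:**
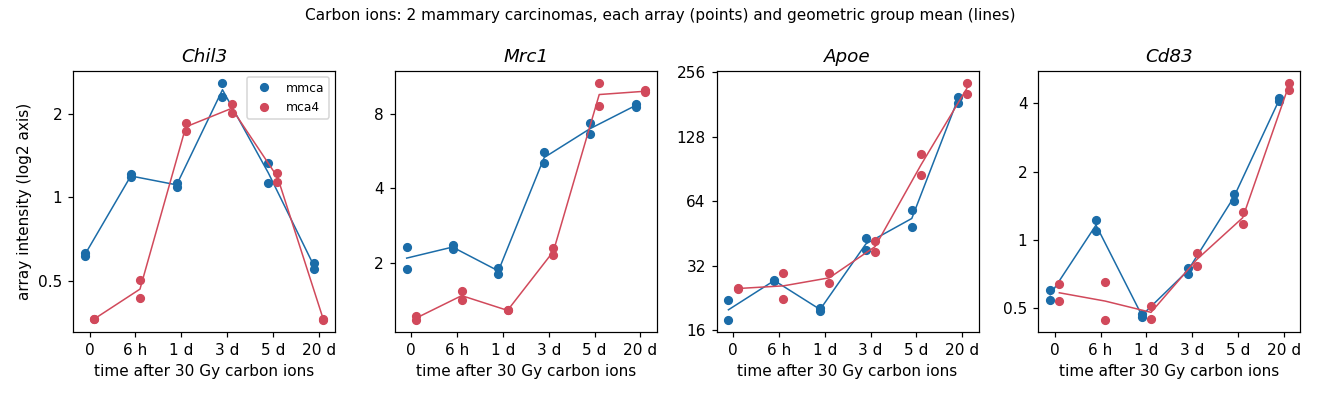
Intensity of Chil3, Mrc1, Apoe and Cd83 (log2 axis, arbitrary units) in mmca and mca4 without radiation and from 6 hours to day 20 after 30 Gy of carbon ions. Points are single arrays and lines join the geometric means of each pair; Chil3 peaks on day 3 and returns to its start, while Apoe and Cd83 are highest on day 20.

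The fall of Chil3 from day 5 to day 20 was present in the other carbon tumours. Chil3 in the radiation-induced fibrosarcoma read 7.22 and 8.53 on day 5 and 0.984 and 1.14 on day 20, in nfsa 3.68 and 3.54 and then 0.824 and 0.973, and in nrs1 2.08 and 1.91 and then 0.623 and 0.648. In each of these tumours the days did not overlap. Averaged over 5 tumours Chil3 fell by 1.88 (10 against 10 arrays, SE 0.174, limma adjusted p = 2.53e-14). In scc7, sampled on days 5 and 42, it read 1.94 and 1.8 and then 1.58 and 1.67, a log2 difference of -0.2 (SE 0.389, limma adjusted p = 0.728).

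Chil3 is also made by neutrophils, so their markers are set beside it. At gamma day 1, 7 of 8 neutrophil markers tested were higher and none was lower, with a median log2 change of 0.61 against -0.0379 over all genes. The shares of all genes are given with the counts of members below. By tumour, 6 of 8 were higher in the radiation-induced fibrosarcoma, 1 in mmca and 5 in nfsa. In mca4 0 were higher (0 at an unadjusted p under 0.05, median 0.09). S100a9, a calcium-binding protein of neutrophils and monocytes, changed by 1.1 (SE 0.184, limma adjusted p = 4.48e-07). In nfsa the list averaged 1.09 to 1.15 without radiation, 1.76 to 1.86 at 30 Gy, 2.62 to 2.65 at 50 Gy and 1.63 to 1.65 at 70 Gy, the same dose order as Chil3. In mca4 the list averaged 1.08 to 1.26 without radiation, 0.99 to 1.03 at 30 Gy, 1.61 to 1.66 at 50 Gy and 1.15 to 1.17 at 70 Gy. On days 8 to 25 the neutrophil list was still higher in 7 of 8 members (median 0.64), while Chil3 was lower. By tumour, 6 were higher then in the radiation-induced fibrosarcoma, 3 in mmca, 2 in nfsa (1 lower) and 3 in mca4. After carbon ions, over mmca and mca4, 3 of 8 neutrophil markers were higher at 6 hours (median 0.74, with 5.06% of all genes higher), 0 on day 1 by limma's test (2 at an unadjusted p under 0.05, median 0.42), 3 on day 3 (median 0.35) and 5 on day 5 (median 0.9). In mmca alone 6 of 8 were higher on day 5 (median 1.32). The part of neutrophils in the Chil3 values was not tested.

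Mrc1, at chr2:14229414-14332023, encodes the macrophage mannose receptor (CD206), which takes up glycoproteins and marks alternatively activated macrophages. It rose late, from very different starting levels. Without radiation it read 24 and 42 in nfsa, 9.03 and 9.28 in the radiation-induced fibrosarcoma, 1.51 and 2.02 in mca4 and 0.595 and 0.579 in mmca, so no tumour overlapped with another. On the log2 scale mmca lay 5.76 below nfsa and 1.57 below mca4, and the radiation-induced fibrosarcoma lay 1.79 below nfsa, each past the test.

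In mmca Mrc1 read 3.83, 4.31 and 7.35 on day 9 after 30 Gy and 8.35, 10.5 and 5.68 on day 19 after 50 Gy, against 0.823 and 0.525 in unirradiated tumours of day 9. In mca4 it read 5.8, 11.8 and 5.54 on day 11 and 3.42, 6.98 and 7.39 on day 25. In both mammary carcinomas every array of days 8 to 25 lay above every unirradiated array and above every array of day 1. In nfsa the day 9 arrays read 70, 61.6 and 63.9 after 30 Gy and 35.3, 81.3 and 61.5 after 50 Gy. Of these only 35.3 lay within the unirradiated pair, and the late change passed the test (0.93, SE 0.305, limma adjusted p = 0.00716). Mrc1 was already higher in nfsa on day 4 (0.9, SE 0.305, limma adjusted p = 0.00856). Day 9 differed from day 4 by 0.02 (SE 0.215, limma adjusted p = 0.952).

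In the radiation-induced fibrosarcoma the direction of Mrc1 differed between late groups. It read 5.75, 2.56 and 4.46 on day 8 after 30 Gy, below the unirradiated pair (log2 change -1.18, SE 0.341, limma adjusted p = 0.00225). It read 4.78, 12.6 and 8.25 on day 16 after the same dose (log2 change -0.21, SE 0.341, limma adjusted p = 0.599), and 20.2, 23.6 and 12.8 on day 22 after 50 Gy, above that pair (log2 change 1, SE 0.341, limma adjusted p = 0.0084). The groups of days 8 and 16 share a dose and differ by day, whereas the day 22 group differs from both in dose and day, which cannot be told apart there. Over all late groups of the radiation-induced fibrosarcoma the change was -0.13 (SE 0.292, limma adjusted p = 0.703).

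Averaged over the 4 tumours Mrc1 was 2.79-fold higher on days 8 to 25 than without radiation (log2 change 1.48, SE 0.151, limma adjusted p = 4.41e-14). At day 1 its change was 0.27 (SE 0.152, limma adjusted p = 0.127). That average hides mmca, where Mrc1 read 0.544 and 0.46 at 30 Gy, 3.66 and 3.57 at 50 Gy and 1.7 and 1.79 at 70 Gy. Without the 50 Gy group of mmca the day 1 average was 0.1.

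After carbon ions Mrc1 was higher from day 3, and its change after day 5 did not pass the test. In mmca it read 1.88 and 2.31 without radiation, 2.27 and 2.35 at 6 hours, 1.8 and 1.9 on day 1, 5.08 and 5.58 on day 3, 6.62 and 7.33 on day 5 and 8.53 and 8.79 on day 20. In mca4 it read 1.17 and 1.21, 1.41 and 1.53, 1.28 and 1.28, 2.3 and 2.14, 10.7 and 8.57, and 9.98 and 9.77 at the same times. The day 1 values lay beside the unirradiated ones, whereas Chil3 was already higher then. Over the pair of tumours Mrc1 changed by -0.03 on day 1 (SE 0.264, limma adjusted p = 0.966), by 1.13 on day 3 (SE 0.264, limma adjusted p = 0.000331) and by 2.56 on day 20 (SE 0.264, limma adjusted p = 8.61e-14). The step from day 3 to day 5 was 1.25 (SE 0.264, limma adjusted p = 0.000434), and that from day 5 to day 20 was 0.18 (SE 0.264, limma adjusted p = 0.671).

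Apoe, at chr7:19696244-19701310, encodes apolipoprotein E, which carries cholesterol out of lipid-laden macrophages and is also made by other cells. It had the largest late rise of the 10 members in the gamma average. In nfsa it read 2.82 and 3.2 without radiation, 10.5 and 10.4 on day 1 after 30 Gy, 4.3 and 4.89 after 50 Gy and 4.19 and 4.37 after 70 Gy. On day 4 it read 36.5, 52.6 and 18.9 after 30 Gy and 46, 46.9 and 208 after 50 Gy, and on day 9 it read 27.2, 65.7 and 38.8 and then 126, 250 and 198. Each of these irradiated arrays lay above the unirradiated pair, and the 3 day 9 arrays at 50 Gy lay above those at 30 Gy. The change of Apoe in nfsa on day 9 after 50 Gy was 5.94 (SE 0.396, limma adjusted p = 8.37e-21), and over both late groups it was 29-fold (log2 change 4.86, SE 0.354, limma adjusted p = 5.01e-19).

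The other tumours started higher and rose less. In mmca Apoe read 18.3 and 13.9 in unirradiated tumours of day 9, 53.8, 76.4 and 58.7 on day 9 after 30 Gy and 169, 176 and 143 on day 19 after 50 Gy. In mca4 it read 19 and 13.8 without radiation, 86.3, 107 and 63.5 on day 11 and 75.7, 177 and 108 on day 25. In the radiation-induced fibrosarcoma it read 12.1 and 18.4 without radiation and from 13.2 to 93.1 on days 8 to 22, with 1 late array inside the unirradiated range. Averaged over the 4 tumours Apoe was 7.65-fold higher on days 8 to 25 (log2 change 2.93, SE 0.175, limma adjusted p = 9.12e-25). At day 1 its change was 0.57 (SE 0.177, limma adjusted p = 0.0044), and no single tumour but nfsa (0.97, limma adjusted p = 0.0308) passed the test.

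After carbon ions Apoe climbed to the last day sampled. In mmca it read 17.9 and 22.3 without radiation, 19.7 and 20.4 on day 1, 38 and 43.3 on day 3, 48.5 and 58.5 on day 5 and 185 and 196 on day 20. The mca4 arrays read 25.3 and 24.9, 29.7 and 26.7, 41.7 and 37.2, 106 and 84.5, and 229 and 202 at the same times. Over the pair of tumours Apoe was 9.04-fold higher on day 20 (log2 change 3.18, SE 0.307, limma adjusted p = 6.05e-15). It rose by 1.51 between days 5 and 20 (SE 0.307, limma adjusted p = 9.28e-05), over the interval in which Chil3 fell by 1.41 and Mrc1 did not pass the test.

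Cd83, at chr13:43785112-43803133, encodes a surface protein of activated dendritic cells and other antigen-presenting cells. It was the other late gene. Without radiation it read 0.232 and 0.14 in the radiation-induced fibrosarcoma, 0.233 and 0.247 in mmca, 0.719 and 0.86 in nfsa and 0.284 and 0.269 in mca4. In mca4 it read 1.76, 2.13 and 1.45 on day 11, and in nfsa it read 2.41, 2.82 and 2.51 on day 9 after 50 Gy. In all 4 tumours every array of days 8 to 25 lay above every array of day 1. Averaged over the 4 tumours the late change was 2.03 (SE 0.133, limma adjusted p = 1.48e-22), and the change at day 1 was 0.03 (SE 0.133, limma adjusted p = 0.845). Against the unirradiated pair of nfsa, day 9 after 30 Gy did not pass the test (0.39, SE 0.298, limma adjusted p = 0.276), while day 9 after 50 Gy did (1.71). In nfsa Cd83 fell at day 1 by 1.08 (SE 0.267, limma adjusted p = 0.00143), with all 6 irradiated arrays between 0.318 and 0.47.

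After carbon ions Cd83 in mmca read 0.545 and 0.604 without radiation, 1.1 and 1.23 at 6 hours, 0.458 and 0.473 on day 1, 0.711 and 0.752 on day 3, 1.59 and 1.48 on day 5 and 4.11 and 4.2 on day 20. In mca4 it read 0.638 and 0.537 without radiation and 4.93 and 4.57 on day 20. The day 20 change over both tumours was 2.94 (SE 0.231, limma adjusted p = 1.04e-18). Of 9 dendritic cell markers tested in the late gamma comparison, 1 was higher (Itgax, 0.83) and 4 were lower, Fscn1 by 1.04 among them.

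The surface receptors Msr1 and Fcer1g were the members whose day 1 change passed the test of tumour type, for Fcer1g through mmca alone. Msr1, at chr8:39543232-39642750, encodes the class A scavenger receptor that takes up modified lipoproteins. Without radiation it read 30 and 33.5 in the radiation-induced fibrosarcoma and 38 and 39.4 in nfsa, against 3.18 and 3.03 in mmca and 6.04 and 7.31 in mca4. At gamma day 1 the arrays of mmca read 7.07 and 6.58 at 30 Gy, 11.7 and 11.3 at 50 Gy and 7.27 and 7.05 at 70 Gy, all above the unirradiated arrays. Those of nfsa read 46.8 and 52.1, 37.6 and 39, and 37.4 and 38.2, around the unirradiated pair. The day 1 change of Msr1 in the fibrosarcomas was 0.81 log2 units smaller than in the mammary carcinomas (interaction -0.81, SE 0.136, limma adjusted p = 8.61e-06), and the late change was 1.17 smaller (interaction -1.17, SE 0.135, limma adjusted p = 9.69e-11).

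Msr1 was also early after carbon ions. The mmca arrays read 6.61 and 6.91 without radiation, 8.63 and 9.8 on day 1, 20.2 and 20.6 on day 3, 22.6 and 25.7 on day 5 and 17 and 15.8 on day 20. The mca4 arrays read 5.83 and 6.02, 8.71 and 9.18, 20.5 and 20.6, 23.3 and 20.5, and 17.3 and 14.5 at the same times. It was 3.24-fold higher on day 3 (log2 change 1.7, SE 0.118, limma adjusted p = 1.36e-19), and it fell by 0.51 between days 5 and 20 (SE 0.118, limma adjusted p = 0.000635). Msr1 and Chil3 fell over that interval in this pair of tumours (13.4% of all genes were lower), Mrc1 did not pass the test, and the other 7 members rose (12.3% of all genes were higher).

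Fcer1g, at chr1:171229572-171234349, encodes the signalling gamma chain shared by Fc receptors. Without radiation it read 59.6 and 67.8 in the radiation-induced fibrosarcoma, 68.7 and 69.6 in nfsa, 23.3 and 22.6 in mca4 and 4.02 and 4.22 in mmca. In mmca it read 13.7 and 12.9 on day 1 after 30 Gy and 40.3, 39.4 and 31.6 on day 19 after 50 Gy, whereas in the radiation-induced fibrosarcoma the late arrays read from 39.3 to 70.7 and overlapped with the unirradiated pair. Its change was smaller in the fibrosarcomas by 0.88 at day 1 (interaction -0.88, SE 0.173, limma adjusted p = 0.00011) and by 0.95 on days 8 to 25 (interaction -0.95, SE 0.172, limma adjusted p = 6.41e-06). Unirradiated mmca of day 9 read 13.2 and 7.9, above its day 1 pair by 1.31 log2 units (SE 0.212, limma adjusted p = 2.99e-06). Ms4a7 (1.6), Ly86 (1.27) and Cd83 (1) also rose between those unirradiated groups, a comparison in which 6.85% of all genes tested were higher, so the mmca controls were not constant over time.

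In the gamma averages Ms4a7, Mpeg1, Lyz2 and Ly86 rose both at day 1 and on days 8 to 25. Single tumours differed: at day 1 Lyz2 and Ly86 did not pass the test in nfsa or mca4, nor Mpeg1 in nfsa. On the late days Lyz2 did not pass in the radiation-induced fibrosarcoma or nfsa. On carbon day 1 none of these genes was higher by limma's test. Ms4a7, at chr19:11321039-11336146, encodes a 4-span membrane protein of mature macrophages. In the radiation-induced fibrosarcoma it read 1.86 and 1.75 without radiation, 5.6 and 5.72 on day 1 after 30 Gy and 5.36, 6.95 and 6.2 on day 8. In nfsa it read 3.35 and 2.98 without radiation and 15.6, 22 and 19.4 on day 9 after 50 Gy. Over the 4 tumours its change was 1.15 at day 1 (SE 0.111, limma adjusted p = 1.84e-14) and 1.62 on days 8 to 25 (SE 0.11, limma adjusted p = 5.82e-22).

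Mpeg1, at chr19:12460770-12465285, encodes perforin-2, a pore-forming protein that kills engulfed bacteria. In mmca it read 1.74 and 1.75 without radiation and 14.6, 19.1 and 14.5 on day 19 after 50 Gy, and after carbon ions 4.13 and 4.45 and then 17.9 and 20 on day 20. In all 4 gamma tumours every array of days 8 to 25 lay above every unirradiated array. Its change was 0.65 at day 1 (SE 0.107, limma adjusted p = 3.25e-07) and 1.78 later (SE 0.106, limma adjusted p = 6.65e-25).

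Lyz2, at chr10:117277541-117282272, encodes lysozyme M, the bacterial cell wall enzyme that neutrophils also make. In mmca it read 19.1 and 9.69 in unirradiated tumours of day 9, from 65.9 upward on day 9 after 30 Gy and 104, 130 and 141 on day 19 after 50 Gy. Lyz2 in the radiation-induced fibrosarcoma read 132 and 142 without radiation, 69.8, 48.7 and 139 on day 8, 81.4, 128 and 124 on day 16 and 206, 129 and 134 on day 22. Over these late groups the change was 2.9 in mmca (SE 0.221, limma adjusted p = 5.38e-18) and -0.33 in the radiation-induced fibrosarcoma (SE 0.211, limma adjusted p = 0.165), where day 8 alone fell by 0.81 (SE 0.247, limma adjusted p = 0.00367). Lyz2 has a near-identical paralog, Lyz1, whose probe read from 10.8 to 355 on the gamma arrays, and hybridization of each transcript to the other's probe cannot be told apart. Chil4, the close paralog of Chil3, was dim, with values from 0.0634 to 0.421 on the arrays that had one. Lyz2 lacked a value on 2 arrays, and its carbon day 5 value in mca4 rests on 1 array.

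Ly86, at chr13:37345345-37419036, encodes MD-1, the partner of the RP105 receptor. It was lower at 6 hours after carbon ions. It read 15.8 and 17 without radiation, 10.8 and 11.4 at 6 hours and 10.5 and 10.2 on day 1 in mmca, and 12.5 and 16.2, 7.78 and 7.48, and 9.14 and 9.91 in mca4. By day 20 it read 83.5 and 94 in mmca and 116 and 91.9 in mca4. Over both tumours it fell by 0.73 at 6 hours (SE 0.191, limma adjusted p = 0.00647), when 4.48% of all genes tested were lower, and it was 2.65 higher on day 20 (SE 0.191, limma adjusted p = 1.3e-20). At gamma day 1 Ly86 was higher by 0.6 (SE 0.11, limma adjusted p = 3.48e-06).

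Counted together in the average of 4 tumours, 8 of the 10 members were higher and 0 lower at gamma day 1 by limma's test. In that comparison 24.8% of all genes tested were higher and 34.7% were lower. The median log2 change of the members was 0.61, against -0.0379 over all genes. Mrc1 and Cd83 did not pass, either at that threshold or at an unadjusted p under 0.05. By tumour, 6 members were higher at day 1 in the radiation-induced fibrosarcoma, 8 in mmca, 3 in nfsa and 4 in mca4. In nfsa 1, Cd83, was lower. The shares of all genes higher in each tumour are given with Chil3 above. In the average of days 8 to 25, 9 members were higher and 1, Chil3, was lower (median 1.54 against -0.0295), where 34.0% of all genes were higher and 39.6% lower. With each group reduced to 1 value, 3 members kept a call at day 1 and 7 on days 8 to 25, where Msr1, Lyz2 and Fcer1g lost theirs.

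Set against day 1 at 30 and 50 Gy, days 8 to 25 were higher for 8 members and lower for Chil3 and Msr1, where 32.8% of all genes were higher and 42.5% lower. Apoe changed by 2.41 (SE 0.138, limma adjusted p = 5.72e-26), Cd83 by 2.29 (SE 0.105, limma adjusted p = 5.4e-31) and Mrc1 by 1.34 (SE 0.118, limma adjusted p = 1.01e-16). Msr1 changed by -0.17 (SE 0.053, limma adjusted p = 0.00295). Single tumours differed from this average. In the radiation-induced fibrosarcoma 2 members were higher (Apoe and Cd83) and 5 lower, Lyz2 (-1.16), Ms4a7 (-0.44) and Ly86 (-0.38) among them. Mrc1 did not pass there (0.16, limma adjusted p = 0.527). In mmca 9 members were higher and 1 lower, and in mca4 8 were higher and 2 lower. The shares of all genes follow. Chil3 was lower in each of the 4 tumours, by 1.69 in the radiation-induced fibrosarcoma, 1.81 in mmca, 2.7 in nfsa and 1.93 in mca4 on the log2 scale, where 36.6%, 26.5%, 31.7% and 39.1% of all genes were lower. Apoe was higher in each, by 0.94, 2.67, 3.65 and 2.38, where 30.9%, 25.8%, 27.3% and 22.3% of all genes were higher. With each group reduced to 1 value, 6 of the 10 calls in the average were made.

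After carbon ions 2 members were higher on day 1 (Chil3, 1.57, and Msr1, 0.52) and 1 was lower (Ly86), where 4.17% of all genes were higher and 3.83% lower. The Ly86 call (-0.62, limma adjusted p = 0.0282) was lost on leaving out any of 7 of the 8 arrays (limma adjusted p = 0.06 to 0.153), and neither tumour passed alone. On day 3, 9 of 10 were higher (17.3% of all genes), the exception being Cd83 at 0.42 (SE 0.231, limma adjusted p = 0.137). On day 5 all 10 were higher (22.1% of all genes), with changes from 1.26 for Cd83 to 2.38 for Mrc1. On day 20, 9 were higher (27.3% of all genes), with changes from 1.35 for Msr1 to 3.18 for Apoe, and Chil3 was the exception. With gamma and carbon fitted apart, 6 members passed on day 1 in place of 3.

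**Figure D3:**
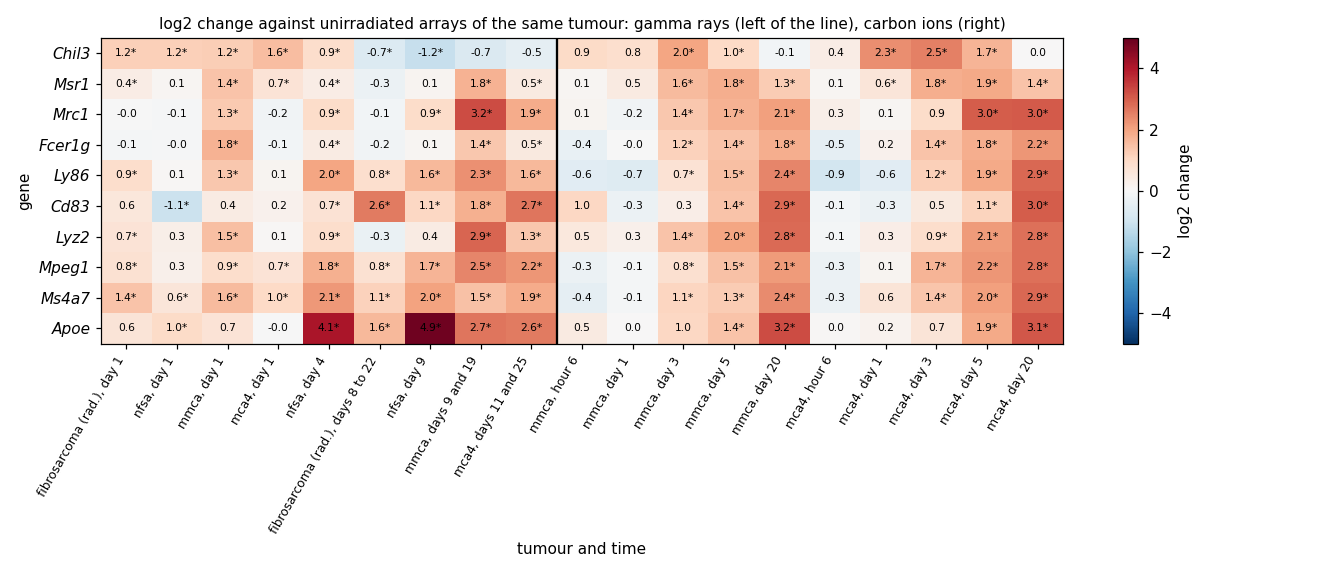
Log2 change of each of the 10 members (rows) against unirradiated tumours of the same kind, for 9 gamma and 10 carbon comparisons (columns), with colour from lower (blue) to higher (red) and an asterisk where limma's adjusted p is under 0.05. The Chil3 row is red at the early times and blue or pale at the late gamma times and on day 20, while the Apoe and Cd83 rows are palest early and darkest late.

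The time at which each member stood highest was counted over 10 courses, 1 for each tumour with unirradiated arrays, beam and dose followed. Chil3 was highest on day 1 in 6 courses, on days 3 to 5 in 3 and without radiation in 1, and never on day 8 or later. Apoe and Cd83 were highest on day 8 or later in all 10, Mpeg1 in 9, Mrc1 and Ms4a7 in 8, Ly86 in 7 and Lyz2 and Fcer1g in 6. Msr1 was spread, with 4 courses highest on day 1, 3 on days 3 to 5 and 3 later. The gamma courses sampled no day between 1 and 8 except in nfsa, so a peak in that gap would be missed.

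The late gamma change differed between tumour types for 6 members, all smaller in the fibrosarcomas, where 26.5% of all genes had a smaller change and 12.6% a larger one. Besides Msr1 and Fcer1g these were Mrc1 (interaction -2.16, SE 0.301, limma adjusted p = 2.18e-08), Lyz2 (-2.08, SE 0.22, limma adjusted p = 8.47e-12), Mpeg1 (-1.1, SE 0.212, limma adjusted p = 2.02e-05) and Ly86 (-0.73, SE 0.218, limma adjusted p = 0.00547). Ly86 lost its call without 1 of 2 control arrays: it was -0.42 (limma adjusted p = 0.133) without the unirradiated day 9 replicate 2 of mmca, and -0.55 (limma adjusted p = 0.0591) without the unirradiated replicate 2 of mca4. Its late change was 0.84 in the radiation-induced fibrosarcoma, 1.63 in nfsa, 2.29 in mmca and 1.63 in mca4. The Ly86 difference thus lay between the radiation-induced fibrosarcoma and mmca, with nfsa and mca4 alike. At day 1 Msr1 and Fcer1g alone passed, where 17.5% of all genes had a smaller change and 4.37% a larger one.

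Chil3 and Apoe did not pass that test of tumour type. The late interaction was -0.35 for Chil3 (limma adjusted p = 0.384), 0.63 for Apoe (limma adjusted p = 0.15), -0.4 for Cd83 (limma adjusted p = 0.238) and -0.09 for Ms4a7 (limma adjusted p = 0.769). The day 1 interaction of Chil3 was -0.2 (limma adjusted p = 0.702). Between mmca and mca4 after carbon ions, 0 of 10 members had a day 20 change that differed by limma's test, and 0 of 10 did at an unadjusted p under 0.05 (0.286% of all genes differed in either direction). With carbon fitted apart, Mrc1, Ms4a7 and Mpeg1 passed, all smaller in mmca, and the main difference of Mrc1 was -1 (SE 0.528, limma adjusted p = 0.548).

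In the average of 4 tumours, most members that had risen at day 1 were lower after the highest dose than after the lowest. In single tumours fewer passed the test. From 30 to 70 Gy, 2 members were higher (Mrc1, 0.44, and Mpeg1, 0.45) and 6 were lower, where 23.7% of all genes were higher and 26.5% lower. Leaving out 1 of the 16 arrays ended the call of Mrc1 in 14 cases, of Ms4a7 in 13 and of Msr1 in 2, with limma adjusted p-values up to 0.0835. Apoe changed by -0.85 (SE 0.217, limma adjusted p = 0.000708), Ly86 by -0.74 (SE 0.135, limma adjusted p = 4.13e-06), Lyz2 by -0.67 (SE 0.135, limma adjusted p = 2.65e-05) and Fcer1g by -0.53 (SE 0.106, limma adjusted p = 2.64e-05). By tumour Apoe passed in nfsa alone (-1.29, SE 0.434, limma adjusted p = 0.0197), where it read 10.5 and 10.4 after 30 Gy and 4.19 and 4.37 after 70 Gy. Lyz2 passed in mca4 alone (-0.96, limma adjusted p = 0.0138). Ly86 and Fcer1g passed in the radiation-induced fibrosarcoma and nfsa, and Msr1 and Ms4a7 in no single tumour. In mmca no member was lower by the test. Chil3 changed by 0.27 (SE 0.194, limma adjusted p = 0.251). The Mrc1 call came from mmca (1.8, SE 0.373, limma adjusted p = 8.89e-05), while in mca4 Mrc1 changed by -1.04 (SE 0.373, limma adjusted p = 0.0548). Mpeg1 also passed in mmca alone (1.12, SE 0.262, limma adjusted p = 0.000497). The split of calls over all genes moved with the scaling: 47.3% of calls were higher in the main fit and 66.0% after quantile normalization, when 5 members passed in place of 8.

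The latest gamma groups went down again in mca4. Between days 25 and 41 after 50 Gy, 9 of 10 members fell, where 15.4% of all genes were lower. Mrc1 read 3.42, 6.98 and 7.39 and then 2.83 and 0.909 (log2 change -1.81, SE 0.341, limma adjusted p = 2.81e-05). Apoe read 75.7, 177 and 108 and then 74.4 and 33.9 (log2 change -1.17, SE 0.396, limma adjusted p = 0.0174). Chil3 read 0.578, 0.398 and 0.537 and then 1.09 and 0.462 (log2 change 0.51, SE 0.355, limma adjusted p = 0.276). The study's design mentions a recurrence time point, and the labels used here do not mark which groups it covers.

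In scc7 between days 23 and 35 after 50 Gy, 0 of 10 members passed limma's test and 2 had an unadjusted p under 0.05 (0.503% of all genes were higher and 0.627% lower), and Mrc1 had the largest difference, -1.25 (SE 0.373, limma adjusted p = 0.0768). Cd83 was high there, with 4.91 and 7.05 on day 23 and 6.65 and 10.2 on day 35. In nrs1 Mrc1 read 2.79, 3.84 and 3.67 on day 8 after 30 Gy and 0.841, 2.61 and 2.44 on day 15 after 50 Gy. No unirradiated group of scc7 or nrs1 was analysed here, so no change is given for them.

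On carbon day 5 all 6 tumours could be set side by side. Mrc1 read 54 and 55.9 in nfsa, 34.6 and 33.5 in scc7, 17.3 and 16.3 in the radiation-induced fibrosarcoma, 10.7 and 8.57 in mca4, 6.62 and 7.33 in mmca and 2.8 and 2.71 in nrs1. In this order the difference between nfsa and scc7 did not pass the test (log2 difference 0.69, limma adjusted p = 0.117). Nor did those between the radiation-induced fibrosarcoma and mca4 (0.81, limma adjusted p = 0.0598) or mca4 and mmca. The arrays of these tumours did not overlap, and the test used a spread shared over all groups. By the test scc7 was above the radiation-induced fibrosarcoma and mmca above nrs1. Chil3 was highest in the radiation-induced fibrosarcoma, at 7.22 and 8.53, above nfsa by 1.12 (limma adjusted p = 0.0277). It was higher in nfsa than in scc7 by 0.95, and no difference among nrs1, scc7, mca4 and mmca passed the test. Apoe read 139 and 151 in scc7, 128 and 112 in the radiation-induced fibrosarcoma and 148 and 165 in nfsa, against 39.5 and 36 in nrs1.

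From day 5 to day 20 after carbon ions the 5 tumours shared only part of their course. Over their average 4 members fell (Chil3, Msr1, Mpeg1 and Fcer1g) and Apoe rose, where 13.1% of all genes were lower and 24.7% higher. Mpeg1 (-0.3, limma adjusted p = 0.0378) and Fcer1g (-0.23, limma adjusted p = 0.0438) each lost the call on leaving out any of 13 of the 20 arrays, with limma adjusted p-values up to 0.121. Over mmca and mca4 both rose in the same interval, by 0.61 (limma adjusted p = 0.00902) and 0.4 (limma adjusted p = 0.0419). Msr1 changed by -0.54 (SE 0.0748, limma adjusted p = 1.59e-08) and Apoe by 0.63 (SE 0.194, limma adjusted p = 0.00695). By tumour Apoe passed in mmca alone (1.84, SE 0.434, limma adjusted p = 0.00279). It changed by 1.19 in mca4 (limma adjusted p = 0.0501), by 0.12 in nfsa (limma adjusted p = 0.9) and by 0.2 in nrs1 (limma adjusted p = 0.75). In the radiation-induced fibrosarcoma, 8 members fell (16.9% of all genes were lower), Cd83 from 3.86 and 4.19 to 1.22 and 1.35 among them, while Mrc1 (0.04) and Apoe (-0.19) did not pass. In mmca and mca4 Cd83 rose over the same days, by 1.44 and 1.92. With each group reduced to 1 value, 0 members passed limma's test for the 5-tumour average, and 2 of 10 had an unadjusted p under 0.05. Skeletal muscle markers in the radiation-induced fibrosarcoma averaged 4.3 to 4.33 on day 5 and 2.75 to 2.77 on day 20, and their part in the result was not tested.

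More of the other macrophage genes were higher than lower in the gamma averages. Of 29 tested from a list of 36 macrophage and monocyte genes, 16 were higher and 3 lower at gamma day 1, and 21 were higher and 2 lower on days 8 to 25 (median 0.81). Single tumours differed from the average: in mca4 at day 1, 4 were higher and 6 lower (21.3% and 21.4% of all genes), and in the radiation-induced fibrosarcoma on the late days 11 were higher and 7 lower (28.1% and 39.5% of all genes). Mmp12, the macrophage metalloelastase, changed by 2.7 (SE 0.176, limma adjusted p = 9.45e-23), and Adgre1, the F4/80 antigen, by 1.55 (SE 0.114, limma adjusted p = 5.34e-20). Mmp12 changed by -0.18 at day 1 (SE 0.177, limma adjusted p = 0.373). After carbon ions 3 of 29 were higher on day 1, 25 on day 3, 29 on day 5 and 24 on day 20, with 0 lower at each time.

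In the gamma averages more monocyte chemokines and growth factors were higher than lower, early and late, though not in every tumour. Of 11 tested, 7 were higher and 2 lower at gamma day 1, and 6 were higher and 2 lower on days 8 to 25. At day 1 the higher and lower counts were 4 and 2 in the radiation-induced fibrosarcoma, 4 and 1 in mmca, 0 and 1 in nfsa and 2 and 2 in mca4. On the late days they were 3 and 2, 6 and 0, 5 and 2, and 2 and 3 in the same order. The shares of all genes in the averaged comparisons are given with the counts of members above. After carbon ions 2 of 11 were higher on day 1, 8 on day 3 and 9 on day 20. Ccl7, which recruits monocytes through CCR2, was higher by 1.11 at day 1 (SE 0.122, limma adjusted p = 3.59e-12) and by 0.61 later. Ccl8, a related chemokine, was higher by 0.71 at day 1 and by 1.55 later (SE 0.21, limma adjusted p = 9.18e-10). Csf2, the granulocyte-macrophage growth factor, was higher by 1.48 later (SE 0.129, limma adjusted p = 1.11e-16). After carbon ions Ccl7 was higher by 2.32 on day 3 (SE 0.212, limma adjusted p = 1.77e-14) and by 1.5 on day 20.

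The lipid handling partners of Apoe were mostly higher in the late gamma average, though not in every tumour. Of 13 partners tested, 3 were higher and 3 lower at gamma day 1, and 9 were higher and 3 lower on days 8 to 25. In the radiation-induced fibrosarcoma 5 were higher and 6 lower on the late days (median -0.39), where Apoe rose by 1.64, and in mca4 the median was 0.09. The cholesterol exporters Abcg1 and Abca1, which load lipid onto apolipoproteins, were higher late by 1.87 (SE 0.097, limma adjusted p = 5.37e-28) and 1.5 (SE 0.0968, limma adjusted p = 5.58e-23). Abca1 was at 0.11 on day 1 (SE 0.0978, limma adjusted p = 0.334), and Abcg1 was already higher then by 0.8. Fabp4, a fatty acid carrier of fat cells, endothelium and macrophages, was lower late by 0.93 (SE 0.153, limma adjusted p = 1.4e-07). On carbon day 20, 9 of 13 were higher and 2 lower.

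Markers of other cells also moved in these comparisons. Of 12 T and NK cell markers tested, 12 were higher on gamma days 8 to 25 (median 1.5, Cd3g by 2.14), 12 on carbon day 5 and 9 on carbon day 20. By tumour, 10 were higher late after gamma rays in the radiation-induced fibrosarcoma, 6 in mmca, 11 in nfsa and 7 in mca4. Between carbon days 5 and 20 in the average of 5 tumours 9 of these 12 were lower. By tumour, 12 were lower in the radiation-induced fibrosarcoma, 10 in nfsa, 4 in nrs1, 2 in mmca (1 higher) and 2 in mca4. The shares of all genes in the averaged comparisons are given with the counts of members above. On carbon day 20 all 15 skeletal muscle markers were higher (median 2.43), averaging 4.48 to 5.01 on the 4 arrays against 1.88 to 2.41 without radiation, and 11 of 11 fibroblast and matrix markers were higher. On day 5, 0 of 15 muscle markers passed limma's test (1 at an unadjusted p under 0.05), with a median log2 change of 1.07 in mca4 and 0.82 in mmca. The part of these cells in the members' values was not tested.

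Across group means, Mrc1 was most like Clec5a (Pearson r 0.97 over 34 gamma groups and 0.93 over 20 carbon groups), Rab3il1 (0.96 and 0.97), Plek (0.96 and 0.95), Hhex (0.95 and 0.94) and Ccr1 (0.95 and 0.93). Apoe was most like Olfr812 (0.93 and 0.97), Ganc (0.88 and 0.78), AW112010 (0.82 and 0.71), Tnfsf13b (0.82 and 0.85) and Apoc4 (0.81 and 0.89). The genes most like Chil3 on the gamma side kept less of that likeness on the carbon side: Adcy4 (0.84 and 0.47), Adamts10 (0.83 and 0.14), Bche (0.83 and 0.47), Pomt2 (0.82 and 0.52) and Ifnl3 (0.82 and 0.32). Among members, with each tumour centred on its own mean, Chil3 ran against Apoe over the gamma groups (r -0.56) and Cd83 (-0.6), and Mrc1 ran with Apoe (0.55 gamma, 0.92 carbon). The groups share tumours and arrays' scaling, so these are descriptions with no test.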

How the data were processed

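Tumour RNA was extracted with ISOGEN and an RNeasy kit, labelled with Cy5 as cRNA and hybridised to CodeLink one-colour arrays, per the labels' protocols. The authors deposited 1 table of linear intensity values, 1 column for each of 121 arrays; their background correction and scaling are not given in the sources used here. The gamma medians (1.31 to 1.85) and the carbon medians (1.04 to 1.07) differ, so each beam was compared only with its own arrays. Array number limits the precision.

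The platform annotation gives a single symbol for 21615 probes, more than 1 for 681 and no symbol for 13931. Probes with values on 90% of arrays or more (28836) were kept, the brightest for each gene, and dim genes below the 20th percentile were left out, which left 12962 genes. Values under 0.1269 (the 5th percentile of positive values) were raised to it, and log2 was taken. One limma fit of group means (limma 3.58.1, R 4.3.3, 67 residual degrees of freedom, trended variance, 2-sided) gave all contrasts. Benjamini-Hochberg adjustment ran over all genes tested, with calls at 0.05. Contrasts weight tumours equally; mmca on days 8 to 25 was set against its day 9 controls. Changes are log2 differences of intensities. The fit was tested on simulated data of 12962 genes: in the gamma day 1 comparison 99% of genes changed by 0.5 were recovered, on carbon day 20 83%. Alternatives were the floor, quantile normalization, missing values at the floor, array weights, no filter, no trend, separate fits, 1 value per group, a replicate block and leaving out each array. Named list genes are up to 4 per list with the largest late gamma change among calls, with others named where a result is set beside them. The members and lists were chosen with earlier results of these data known. Figures were drawn with matplotlib 3.10.9 and Python 3.11.15. Promoters came from RefSeq (GRCm38.p6).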

Additional observations from a re-analysis of the deposited data

Results flagged for a closer look

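For 8 results the change after gamma irradiation differed between the fibrosarcomas (the radiation-induced fibrosarcoma and nfsa) and the mammary carcinomas (mmca and mca4), tested as an interaction within the fit. At day 1 the difference, fibrosarcomas minus mammary carcinomas, was -0.81 for Msr1 and -0.88 for Fcer1g on the log2 scale. On days 8 to 25 it was -2.16 for Mrc1, -2.08 for Lyz2, -1.17 for Msr1, -1.1 for Mpeg1, -0.95 for Fcer1g and -0.73 for Ly86. Each tumour type is represented by 2 tumours.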

How the results depend on the processing

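Over 110 results for single members and 960 pairs of result and alternative, 909 kept direction and side of the threshold, 37 lost a call, 10 gained one and 4 changed sign. With each group reduced to 1 value, calls went from 8 to 3 at gamma day 1, from 10 to 7 for days 8 to 25 against unirradiated tumours, from 10 to 6 for days 8 to 25 against day 1, from 8 to 4 for 70 against 30 Gy and from 5 to 0 for carbon day 20 against day 5; fewer values enter that fit. Quantile normalization gave 5 of 8 for 70 against 30 Gy, also with missing values at the floor. Fitting the beams apart gave 6 calls on carbon day 1 in place of 3, and 3 in place of 0 for mmca against mca4; the cause was not tested. Signs changed for Cd83 at gamma day 1 with the floor at the 10th percentile (-0.01, adjusted p = 0.956), Mrc1 at gamma day 1 with 30 Gy alone (-0.01, adjusted p = 0.981), Ms4a7 on carbon day 20 against day 5 (0.00, adjusted p = 0.995) and Lyz2 on carbon day 5 (-0.46, adjusted p = 0.736), the last 2 with missing values at the floor, which by construction sets a missing bright Lyz2 spot to the floor.

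The share of calls that were higher over all genes moved from 47.3% to 66.0% (quantile) and 63.1% (missing values at the floor) for 70 against 30 Gy, from 20.0% to 30.8% and 32.7% for the day 1 difference between tumour types, from 36.5% to 47.3% on carbon day 5, and from 65.4% to 51.8% and 51.1% for carbon day 20 against day 5. For mmca against mca4 it moved from 64.9% to 46.7% (array weights) and 42.1% (separate fits). Leaving out each array gave 5 to 7 calls for 70 against 30 Gy, 5 to 6 for the late difference between tumour types, 2 to 3 on carbon day 1, 9 to 10 on carbon day 5 and 3 to 5 for carbon day 20 against day 5, and the main count for the other results. With the replicate block, 7 calls were made for 70 against 30 Gy (Mrc1 lost, 0.44, adjusted p = 0.0509), 8 at gamma day 1 and 10 late, and no other member's call changed; the labels do not say that the numbers pair arrays, and same-numbered groups correlated at a median of 0.279 in carbon mmca, 0.193 in carbon mca4 and between -0.0207 and 0.0397 in gamma the radiation-induced fibrosarcoma, mmca, nfsa and mca4. No second probe of any member was used here. Dim probes and the small number of arrays limit what Cd83 and Chil3 can show.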
